A study of Mus musculus with 16 samples.

Results

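The 10 genes described here load polyunsaturated fatty acids into membrane phospholipids, make or compete with those fatty acids, or oxidise them. They are Acsl4, Lpcat3, Alox5, Alox12, Alox15, Scd1, Scd2, Fads1, Fads2 and Elovl5, chosen by name for these roles and matched by Ensembl gene ID. All 10 were found, among 55335 gene IDs in 10 libraries whose labels give an age and 54532 in 6 libraries whose labels give none, with 54113 IDs in both. RNA came from mouse thymic double-positive (DP) cells, the stage of T cell development that carries both CD4 and CD8, sorted by flow cytometry and sequenced in bulk. The groups were 4 old WT, 3 young METTL3 KO and 3 young WT libraries in the set with an age, and 3 METTL3 KO and 3 WT libraries in the set without one. METTL3 is the enzyme that writes N6-methyladenosine on RNA. The labels give no age in weeks, strain, promoter or Cre line for the knockout, deleted part of Mettl3, sex or litter, and they do not say that libraries came from separate animals, so p-values measure the spread between these libraries, which may be technical.

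Polyunsaturated fatty acids in membranes are the main substrate of lipid peroxidation, the process that kills cells in ferroptosis. ACSL4 couples arachidonic and related acids to coenzyme A and LPCAT3 places them in phospholipids, while the lipoxygenases encoded by Alox5, Alox12 and Alox15 add oxygen to them. FADS2 and FADS1 introduce the double bonds and ELOVL5 lengthens the chain on the way from dietary precursors to arachidonic acid, and the stearoyl-CoA desaturases SCD1 and SCD2 make monounsaturated acids, which compete with polyunsaturated ones for the same positions and are known to restrain ferroptosis. Thymic DP cells die in large numbers during selection, mostly by apoptosis.

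The annotation of mm10 places 4 of these genes on chromosome 19. Scd2 (ENSMUSG00000025203, chr19:44293674-44306864, plus strand) and Scd1 (ENSMUSG00000037071, chr19:44394455-44407879, minus strand) are neighbours there, as are Fads2 (ENSMUSG00000024665, chr19:10062765-10101746, minus) and Fads1 (ENSMUSG00000010663, chr19:10182888-10196877, plus). Alox12 (ENSMUSG00000000320, chr11:70241457-70255353, minus) and Alox15 (ENSMUSG00000018924, chr11:70344152-70352031, minus) lie close together on chromosome 11. Acsl4 (ENSMUSG00000031278) is at chrX:142317993-142390535 on the minus strand, Elovl5 (ENSMUSG00000032349) at chr9:77917364-77984519 on the plus strand, and on chromosome 6 lie Lpcat3 (ENSMUSG00000004270, chr6:124663027-124704418, plus) and Alox5 (ENSMUSG00000025701, chr6:116410077-116461178, minus). All are protein coding. Sequence shared within the pairs compared is small. Of the 50-base runs in Scd1 transcripts, 145 (2.97%) also occur in Scd2, and 5 of those in Fads2 (0.152%) occur in Fads3. None is shared between Fads1 and Fads2 or between Alox12 and Alox15. Scd1 and Scd2 were compared only with each other.

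The RefSeq table (GRCm38.p6) holds the sequence before the transcription start for 6 of the 10 genes, namely Acsl4, Lpcat3, Alox5, Alox12, Fads2 and Elovl5. The 250 bases before the start are shown for the 4 of these whose level differed between METTL3 KO and WT libraries without an age, 3 of them lower in KO (Fads2, Acsl4, Elovl5) and 1 higher (Alox12). They are Fads2 chr19:10101504-10101753 (minus), Acsl4 chrX:142390536-142390785 (minus), Elovl5 chr9:77917115-77917364 (plus) and Alox12 chr11:70255371-70255620 (minus), each written 5′ to 3′ on the gene's strand. The start is that of RefSeq, and 243 of the 250 bases shown for Fads2 lie inside the gene as the GENCODE annotation above draws it, against 0 for Acsl4 and Alox12 and 1 for Elovl5. Capitals mark the GC box (GGGCGG or its reverse CCGCCC), the CCAAT box (CCAAT or its reverse ATTGG) and the E-box CACGTG.
Fads2: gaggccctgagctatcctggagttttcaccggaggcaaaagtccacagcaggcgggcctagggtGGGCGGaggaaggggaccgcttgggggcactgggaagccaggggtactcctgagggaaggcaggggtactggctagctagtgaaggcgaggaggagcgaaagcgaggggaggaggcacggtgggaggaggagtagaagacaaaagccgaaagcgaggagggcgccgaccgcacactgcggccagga
Acsl4: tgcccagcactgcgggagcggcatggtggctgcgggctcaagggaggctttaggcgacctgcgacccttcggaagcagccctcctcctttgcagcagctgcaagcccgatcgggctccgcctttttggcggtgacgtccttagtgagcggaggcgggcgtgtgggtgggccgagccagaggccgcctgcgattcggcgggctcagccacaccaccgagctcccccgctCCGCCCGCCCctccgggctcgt
Elovl5: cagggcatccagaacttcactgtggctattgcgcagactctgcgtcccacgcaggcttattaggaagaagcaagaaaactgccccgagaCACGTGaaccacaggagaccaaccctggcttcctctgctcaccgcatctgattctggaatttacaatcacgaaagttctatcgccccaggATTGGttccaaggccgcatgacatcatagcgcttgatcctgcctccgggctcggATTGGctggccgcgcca
Alox12: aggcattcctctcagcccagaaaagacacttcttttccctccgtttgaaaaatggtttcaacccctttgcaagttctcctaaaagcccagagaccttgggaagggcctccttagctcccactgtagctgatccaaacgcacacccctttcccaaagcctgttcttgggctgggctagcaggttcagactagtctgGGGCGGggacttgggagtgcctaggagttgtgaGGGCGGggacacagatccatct
Fads2 holds 1 GC box, Acsl4 holds 2 that overlap, Alox12 holds 2, and Elovl5 holds 2 CCAAT boxes and 1 E-box and no GC box. Among all 32817 windows of the same length in the table, 32.7% hold a GC box, 33.8% a CCAAT box and 6.02% this E-box. No motif searched is common to the 3 genes that were lower in KO. The windows are 64.8% G and C for Fads2, 70.8% for Acsl4, 55.6% for Elovl5 and 54.0% for Alox12, against a median of 52.4% over the table.

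Gene counts summed to between 9781368 and 10307780 per library in the set with an age, and in the other set to between 10575795 and 13740694 in METTL3 KO and between 15927134 and 16167074 in WT libraries. Reads counted as no feature were assigned to no annotated feature and need not lie outside genes. They made up 11.9% to 15.0% of entries in METTL3 KO libraries without an age and 7.23% to 7.60% in the matching WT libraries. In the set with an age they made up 47.5% to 51.2%. Levels below are CPM, the counts of a gene scaled to a common library size by TMM. The 7 DP markers Cd4, Cd8a, Cd8b1, Rag1, Rag2, Cd3e and Ptcra were present in all groups. Their summed level was 9490.2 to 12709 CPM in old WT, 11062 to 12207 CPM in young METTL3 KO and 11054 to 12969 CPM in young WT libraries. In the set without an age it was 6140.1 to 7518 CPM in METTL3 KO and 12167 to 13646 CPM in WT libraries. Old WT replicate 3 stood apart in markers of other cell types and in reads aligned to more than 1 place (9.18% of entries, against 4.46% to 5.36% in the other libraries with an age). Mettl3 itself was at 62.1, 64.5 and 64.3 CPM in young METTL3 KO, against 66.0, 65.7 and 59.5 CPM in young WT libraries, so the libraries labelled young METTL3 KO showed no loss of its gene count. In the set without an age it was at 32.5, 38.6 and 27.0 CPM in METTL3 KO, against 54.5, 47.2 and 45.1 CPM in WT libraries. Mettl3 shares 933 bp of exon with Tox4 on the other strand and the strand setting of the counts is not given, so this check is partial.

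Compared per kilobase of exon, Scd2 was the most abundant of the 10 genes in every group. In young WT cells Scd2 was at 83.3 ± 18.9 CPM per kb (SD, n = 3), Elovl5 at 29.2 ± 1.56, Lpcat3 at 17.5 ± 0.693, Acsl4 at 11.7 ± 0.388, Fads1 at 9.41 ± 0.906 and Fads2 at 6.90 ± 1.64. The libraries of neighbouring genes in this order did not overlap, except those of Fads1 and Fads2, whose values ran from 8.66 to 10.4 and from 5.53 to 8.71 CPM per kb. Scd1, the form known from liver and fat, was at 0.169 ± 0.0579 CPM per kb, and Alox5, Alox12 and Alox15 had 0 to 2 counts in each young WT library. Young WT libraries had transcripts for loading, desaturation and elongation, and the lipoxygenase counts were under the 3 counts that a level of 0 allows.

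**Figure D1:**
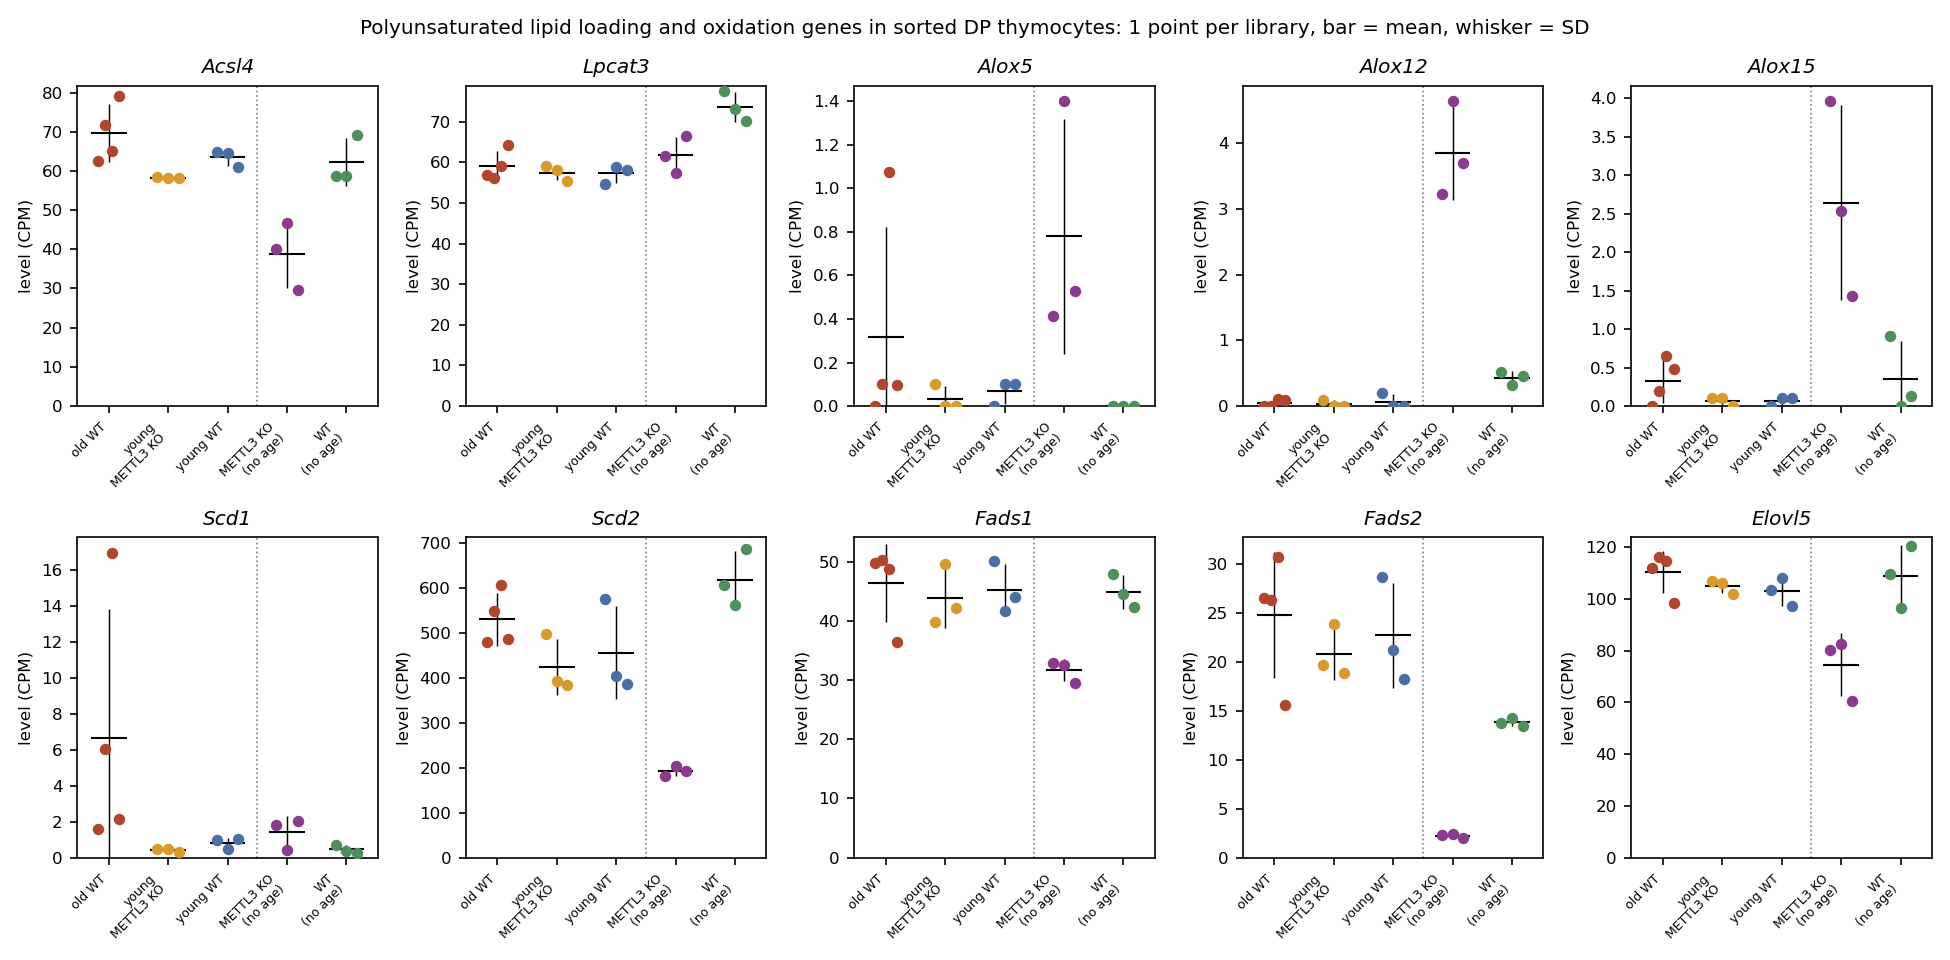
Level of each of the 10 genes in CPM (vertical axis, linear, from 0) in every library, with the group mean as a bar and the SD as a whisker. The dotted line separates the set with an age (old WT, young METTL3 KO, young WT) from the set without one (METTL3 KO, WT), whose levels were not compared with each other. Fads2 at 2.04 to 2.36 CPM in METTL3 KO and 13.5 to 14.3 CPM in WT libraries without an age shows a wide gap, and Scd1 ran from 1.56 to 17.0 CPM within old WT.

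The first comparison asked which of these genes differ with age in WT DP cells. Of the 7 genes tested, 0 passed by edgeR or limma-voom and 1 by DESeq2, and the same gene, Scd1, was the only one with an unadjusted p under 0.05 by edgeR. Scd1 was at 1.56, 6.05, 17.0 and 2.13 CPM in old WT libraries (16, 61, 158 and 22 counts), against 0.973, 0.501 and 1.01 CPM in young WT libraries (10, 5 and 10 counts). All 4 old libraries lay above all 3 young ones, and old WT replicate 3 alone held more than the other old libraries together. The log2 difference was 2.98 ± 0.82 (SE, 95% interval 1.17 to 4.80). Its adjusted p was 0.243 by edgeR's quasi-likelihood test with Benjamini-Hochberg adjustment over 14228 genes. DESeq2 gave 3.001 with an adjusted p of 0.00596, and without old WT replicate 3 the edgeR difference was 1.95 ± 0.51 (adjusted p = 0.17). Of all genes tested, 0.253% were called with age, 12.1% had an unadjusted p under 0.05 and 5.65% had all old libraries above all young ones.

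Markers of other cell types were also highest in old WT replicate 3, the library with the most Scd1. The 7 B cell markers summed to 29.3, 71.6, 188 and 27.9 CPM in old WT replicates 1 to 4, against 21.2 to 26.6 CPM in young WT libraries, with Cd79b the highest. The order of these sums and of Scd1 was alike for the libraries with the most, replicate 3 followed by replicate 2, while replicate 4 had less B cell signal than replicate 1 and more Scd1. The 7 macrophage and monocyte markers summed to 148 CPM in old WT replicate 3 and 28.1 to 31.4 CPM in the other old libraries, against 22.2 to 24.3 CPM in young WT. The 6 dendritic markers summed to 56.2 CPM in that library and 2.90 to 4.96 CPM in the other old ones, against 4.41 to 7.35 CPM in young WT. Outside replicate 3 the macrophage and dendritic sums did not follow Scd1. The 5 erythroid markers summed to 1.56, 6.84, 46.2 and 5.31 CPM in old WT replicates 1 to 4, ranked as Scd1 was. In young WT they summed to 4.19 to 13.3 CPM, the most in replicate 2, which had the least Scd1 of that group (0.501 CPM). The part of these cells in the Scd1 values was not tested. The 6 adipocyte markers, from a cell type rich in Scd1, had no count in old WT replicates 3 and 4 and summed to 0.586 and 0.396 CPM in old WT replicates 1 and 2, against 0.195 to 0.401 CPM in young WT. In bulk RNA, fewer cells of a type and less RNA per cell cannot be told apart.

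**Figure D2:**
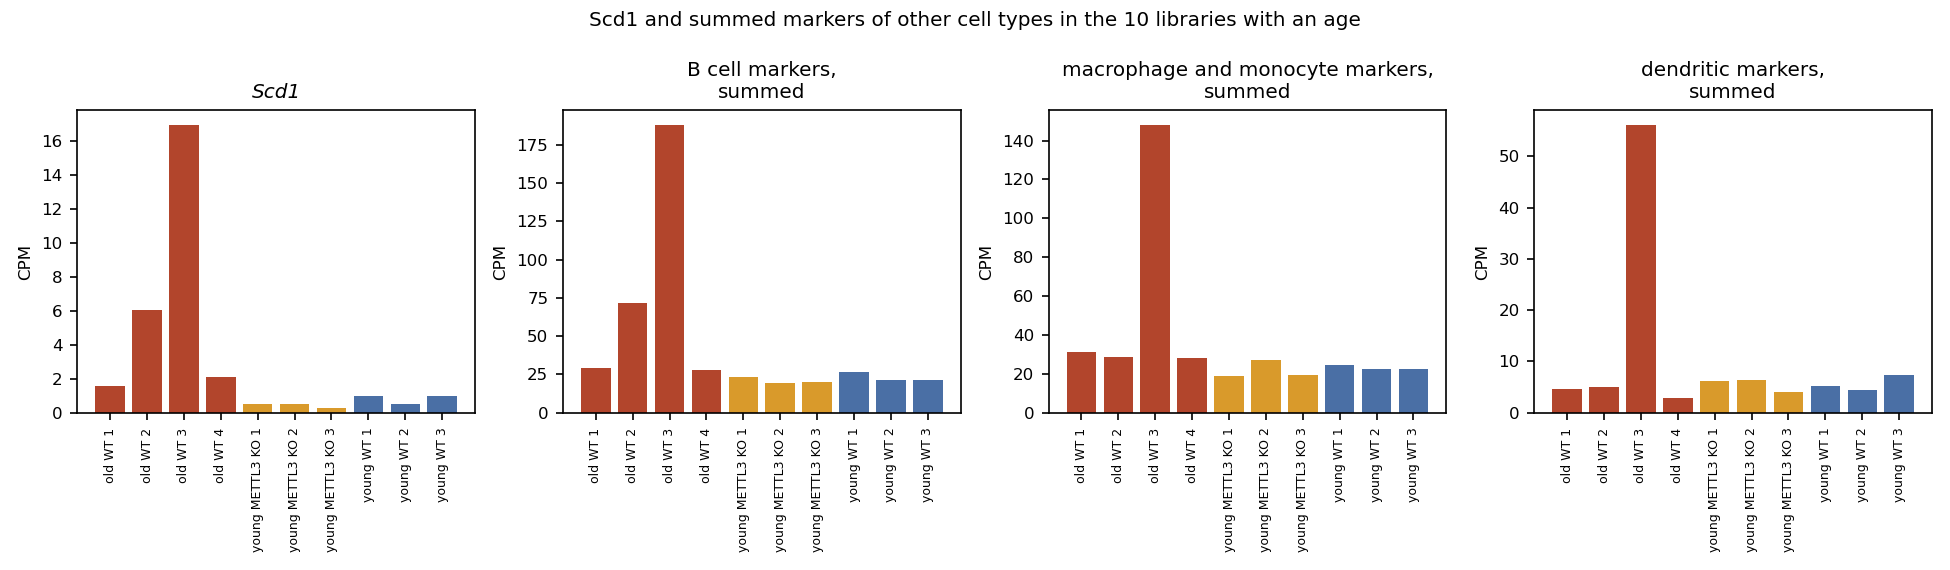
Scd1 and the summed B cell, macrophage and monocyte, and dendritic markers in CPM (vertical axes, linear, from 0; each panel has its own scale), 1 bar per library with an age. Old WT replicate 3 is the highest bar in all 4 panels, at 17.0, 188, 148 and 56.2 CPM, and old WT replicate 2 is second for Scd1 and for B cell markers only.

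The other desaturation and elongation genes differed little with age. Scd2, the form that predominates in these cells, averaged 529.6 ± 59.4 CPM in old WT (479, 548, 606 and 486) and 455 ± 103 CPM in young WT (574, 405 and 387), a log2 difference of 0.22 ± 0.15 (adjusted p = 0.571). Its groups overlapped because young WT replicate 1 lay above 3 of the 4 old libraries. Fads1 averaged 46.3 ± 6.58 CPM in old WT and 45.3 ± 4.36 CPM in young WT (log2 0.03 ± 0.13, 95% interval -0.24 to 0.31). Fads2 averaged 24.8 ± 6.44 CPM in old WT and 22.7 ± 5.40 CPM in young WT (0.13 ± 0.21, -0.33 to 0.59). Elovl5 averaged 110.4 ± 8.13 CPM in old WT and 103 ± 5.48 CPM in young WT (0.10 ± 0.08, -0.08 to 0.28). Old WT replicate 4 had the lowest Fads1 (36.5 CPM), Fads2 (15.6 CPM) and Elovl5 (98.4 CPM) of the old libraries, and the highest Acsl4 (79.2 CPM) and Lpcat3 (64.2 CPM).

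The loading genes also did not pass with age. Acsl4 was at 62.6, 71.9, 65.0 and 79.2 CPM in old WT, against 64.7, 64.6 and 61.0 CPM in young WT libraries. Its log2 difference was 0.13 ± 0.09 (95% interval -0.06 to 0.33, adjusted p = 0.57). Lpcat3 averaged 59.1 ± 3.65 CPM in old WT and 57.3 ± 2.26 CPM in young WT (0.04 ± 0.08, -0.13 to 0.22). A share of Lpcat3 counts may belong to another gene, as 334 bp (10.2%) of its exons lie opposite Emg1, a ribosome assembly factor with a median of 2117 counts in these libraries. The median log2 difference over the 7 genes tested was 0.13, against 0.01 over all genes tested, but Scd1 passed the filter on low counts through old WT, where it is high, and the differences of Lpcat3, Fads1 and Fads2 changed sign with 1 library left out.

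Lipoxygenase counts stayed near 0 in the set with an age and were too low to test. Alox5 had 0, 1, 10 and 1 counts in old WT, 1, 0 and 0 in young METTL3 KO, and 0, 1 and 1 in young WT libraries. Its 10 counts fell in old WT replicate 3, the library with the most macrophage and dendritic marker signal. Alox15 had 0, 2, 6 and 5 counts in old WT, 1, 1 and 0 in young METTL3 KO, and 0, 1 and 1 in young WT libraries. Alox12 had at most 2 counts in any library of this set. No difference in Alox5, Alox12 or Alox15 was tested in this set.

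In young METTL3 KO against young WT libraries, which share the young WT libraries with the age comparison, none of the 7 genes tested was called, nor was any of all genes (0% called by edgeR, with 0 of the 7 and 0.618% of all genes at an unadjusted p under 0.05). DESeq2 and limma-voom also called 0 of the 7. Acsl4 was at 58.5, 58.1 and 58.2 CPM in young METTL3 KO, against 64.7, 64.6 and 61.0 CPM in young WT libraries. The groups did not overlap, as was so for 4.71% of all genes in this direction, and the log2 difference was -0.12 ± 0.10 with a 95% interval of -0.34 to 0.09. Scd1 was at 0.496, 0.494 and 0.298 CPM (5, 5 and 3 counts) in young METTL3 KO, all under the lowest young WT library (0.501 CPM, 5 counts). Its difference of -0.93 ± 1.10 had an interval of -3.36 to 1.51, which reaches past 2-fold in both directions. For the better measured genes the intervals were narrower, at -0.18 to 0.19 for Lpcat3, -0.16 to 0.22 for Elovl5, -0.34 to 0.25 for Fads1, -0.45 to 0.24 for Scd2 and -0.62 to 0.37 for Fads2.

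The third comparison set METTL3 KO against WT libraries without an age, where 7 of the 9 genes tested passed the threshold, 5 lower and 2 higher in KO. Of all 16432 genes tested there, 53.9% were called (29.9% higher and 24% lower), so a call alone says little about these genes. The 2 higher ones, Alox12 and Alox15, passed the filter on low counts through the KO libraries, where they are high. Groups did not overlap for 8 of the 9, all but Scd1, and for 63.8% of all genes (34.3% higher and 29.5% lower). The size of the fall of Scd2 and Fads2 set them apart from most genes. Only 5.45% of genes tested were lower by at least 1.5 on the log2 scale, and 4.11% fell further than Scd2 and 1.28% further than Fads2. The median over the 9 genes was -0.50, against 0.08 over all genes tested, whose middle range ran from -0.61 to 1.09.

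Fads2, the desaturase that starts the conversion of dietary precursors, was at 2.31, 2.36 and 2.04 CPM in METTL3 KO (28, 27 and 27 counts), against 13.8, 14.3 and 13.5 CPM in WT libraries (211, 224 and 207 counts). The groups lay far apart and the libraries within each were close together. Fads2 was 6.17-fold lower in KO, a log2 difference of -2.62 ± 0.27 (adjusted p = 7.07e-05). Scd2 was at 182, 203 and 193 CPM in METTL3 KO (2199, 2315 and 2554 counts), against 606, 562 and 687 CPM in WT libraries (9279, 8838 and 10545 counts). It was 3.21-fold lower, a log2 difference of -1.68 ± 0.15 (adjusted p = 5.26e-05), again with no overlap. Both kept their call under every setting tried, with ranges of -2.92 to -2.53 for Fads2 and -1.87 to -1.58 for Scd2.

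Fads1 and Elovl5, which act after FADS2 in the same route, fell less. Elovl5 was at 80.4, 82.7 and 60.8 CPM in METTL3 KO, against 109.8, 96.7 and 120.4 CPM in WT libraries, a log2 difference of -0.55 ± 0.17 (adjusted p = 0.0177). Fads1 was at 32.9, 32.5 and 29.5 CPM in METTL3 KO, against 47.9, 44.5 and 42.3 CPM in WT libraries, a difference of -0.50 ± 0.16 (adjusted p = 0.02). In both genes every KO library lay below every WT library. Neither call held with the replicate numbers as a block, nor with scaling by library size alone. With library size alone, Fads1 differed by -0.40 (adjusted p = 0.0628) and Elovl5 by -0.44 (adjusted p = 0.0651). The call of Fads1 also did not hold without WT replicate 1 (-0.51, adjusted p = 0.0744). Per kilobase, Fads2 was at 0.679 ± 0.0527 CPM per kb in METTL3 KO and 4.20 ± 0.118 in WT, and Fads1 at 6.58 ± 0.383 in METTL3 KO and 9.33 ± 0.594 in WT.

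Of the loading genes, Acsl4 fell and Lpcat3 did not pass. Acsl4 was at 40.1, 46.7 and 29.5 CPM in METTL3 KO, against 58.8, 58.6 and 69.3 CPM in WT libraries, a log2 difference of -0.68 ± 0.19 (adjusted p = 0.0109). METTL3 KO replicate 3 had the lowest Acsl4 and the lowest Elovl5. This was the only male KO library by Xist and Y-linked genes, while all 3 WT libraries were male. Against those WT libraries this library alone differed by -1.24 for Acsl4 (a gene on the X chromosome) and -1.003 for Elovl5, in a setting added after the data were seen that assumes the lone library varies like the others. Lpcat3 was at 61.7, 57.3 and 66.4 CPM in METTL3 KO, against 77.7, 73.2 and 70.2 CPM in WT libraries. Its groups did not overlap, but the difference of -0.25 ± 0.15 (95% interval -0.58 to 0.07, adjusted p = 0.171) passed only without METTL3 KO replicate 3 (-0.38, adjusted p = 0.0389). Emg1, which lies opposite 10.2% of the Lpcat3 exons, had a median of 3926 counts in this set. It was itself called higher in KO (0.63, adjusted p = 0.021), and its part in the Lpcat3 counts was not tested.

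The lipoxygenases had most of their counts in the METTL3 KO libraries of this set. Alox12 and Alox15 entered the test through these libraries, since their WT counts were too low for the filter. Alox12, the platelet-type lipoxygenase, had 39, 53 and 49 counts in METTL3 KO (3.22, 4.64 and 3.70 CPM), against 8, 5 and 7 counts in WT libraries (0.522, 0.318 and 0.456 CPM). The groups were well separated, with a log2 difference of 3.13 ± 0.49 (8.76-fold, adjusted p = 0.00043), and the call held in every setting tried (2.90 to 3.23). Alox15, the form of macrophages and eosinophils, had 48, 29 and 19 counts in METTL3 KO (3.96, 2.54 and 1.44 CPM), against 14, 0 and 2 counts in WT libraries (0.914, 0 and 0.130 CPM). The lowest KO library stood above the highest WT library by little, and the difference of 2.90 ± 0.91 (adjusted p = 0.0184) lost its call with sex as a covariate (2.02, adjusted p = 0.149), with male libraries only (1.87, adjusted p = 0.253), without WT replicate 3 (2.46, adjusted p = 0.0749) and without METTL3 KO replicate 1 (2.45, adjusted p = 0.0863). Alox5, which starts leukotriene synthesis, had 5, 16 and 7 counts in METTL3 KO and none in the 3 WT libraries. It did not pass the filter on low counts, and with a floor of 3 counts over the WT group it was at least 11.8-fold higher in KO.

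Genes this low tended to be higher in KO. Among the 3412 genes averaging 1 to 3 CPM over the 6 libraries, where Alox12 and Alox15 lie, 50.4% were called higher and 6.92% lower in KO, with a median log2 difference of 1.46. Among the 6323 genes of 10 to 100 CPM, where Acsl4, Lpcat3, Fads1 and Elovl5 lie, 16.4% were called higher and 35.0% lower, with a median of -0.22. These classes average KO and WT libraries, so the difference of a gene helps to place it. Fads2 averaged 3 to 10 CPM, while its WT level of 13.5 to 14.3 CPM lay within 10 to 100 CPM. The 2456 genes of 3 to 10 CPM had a median of 0.32, with 34.4% called higher and 15.0% lower. Scd2 belongs to the 2558 genes of at least 100 CPM, of which 40.1% were called lower, with a median of -0.23.

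**Figure D3:**
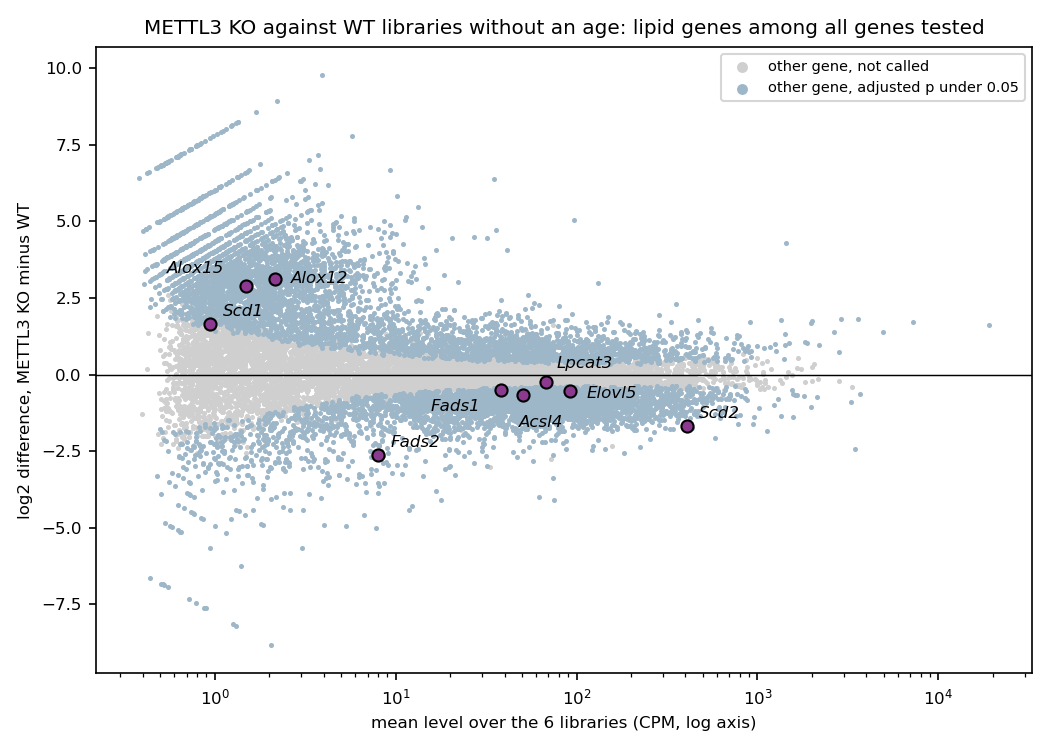
Mean level over the 6 libraries without an age (horizontal axis, CPM, log axis) against the log2 difference of METTL3 KO minus WT (vertical axis) for all 16432 genes tested, with 9 of the lipid genes as large purple points. Fads2 at -2.62 and Scd2 at -1.68 lie in the lower part of the genes of their level, while Alox12 at 3.13 and Alox15 at 2.90 lie among many low genes with positive differences.

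Markers of other cell types also differed in this set, where 29.9% of all genes were called higher and 24% lower. Many of these markers are low. Of all genes averaging 0.5 to 1 CPM, 48.5% were called higher, and of those averaging 1 to 3 CPM, 50.4%. Summed B cell markers were at 48.1 to 55.4 CPM in METTL3 KO and 24.6 to 25.5 CPM in WT libraries (5 of 7 tested called higher), macrophage and monocyte markers at 27.2 to 33.2 CPM in KO and 11.8 to 19.0 CPM in WT (2 of 6), and dendritic markers at 9.60 to 25.3 CPM in KO and 3.79 to 4.90 CPM in WT (4 of 5). Granulocyte, eosinophil and mast cell markers summed to 2.64 to 8.62 CPM in KO and 0.327 to 1.02 CPM in WT. Mcpt4 was at 0 in all 6 libraries. Of these 8 markers only S100a9 and Elane could be tested, and both were called higher. They passed the filter on low counts through the KO libraries, where they are high, as did some markers near 0 in WT in the other lists. Platelet and megakaryocyte markers summed to 8.05 to 16.5 CPM in KO and 2.61 to 3.52 CPM in WT, nearly all of it Itga2b, while Ppbp, Gp9 and Gp1bb were at 0 in all 6 libraries. Fibroblast markers summed to 4.53 to 7.18 CPM in KO and 0.764 to 0.914 CPM in WT, thymic epithelial markers to 8.67 to 12.4 CPM in KO and 6.24 to 6.66 CPM in WT, and erythroid markers to 0.330 to 2.12 CPM in KO and 1.89 to 15.3 CPM in WT. The part of these cells in the Alox5, Alox12 and Alox15 values was not tested. Of the 7 DP markers, 4 were called lower and 0 higher in KO. Among the 4 was Rag1, the highest of the 7 in WT, at 1077 ± 121 CPM in METTL3 KO and 5852 ± 738 CPM in WT. Its log2 difference was -2.44 (adjusted p = 4.11e-05). Cd8a (-0.21), Cd8b1 (-0.24) and Ptcra (0.11) were not called, so the lower summed level does not stand for all 7. The part of the lower DP markers in the lower Fads2, Scd2, Acsl4, Fads1 and Elovl5 was not tested either.

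Scd1 in this set was at 1.82, 0.438 and 2.04 CPM in METTL3 KO (22, 5 and 27 counts), against 0.718, 0.382 and 0.260 CPM in WT libraries (11, 6 and 4 counts). METTL3 KO replicate 2 fell inside the WT range, and the difference of 1.65 ± 0.71 did not pass (adjusted p = 0.0701), although it did without that library (1.99, adjusted p = 0.0284). Adipocyte markers summed to 5.87 to 9.25 CPM in METTL3 KO and 0.195 to 0.764 CPM in WT libraries, with Cidec the highest and Lep at 0 in all 6. Their part in the Scd1 values was not tested. Per kilobase, Scd1 was at 0.293 CPM per kb in METTL3 KO and 0.0927 in WT, far below Scd2 at 35.2 in METTL3 KO and 113 in WT.

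**Figure D4:**
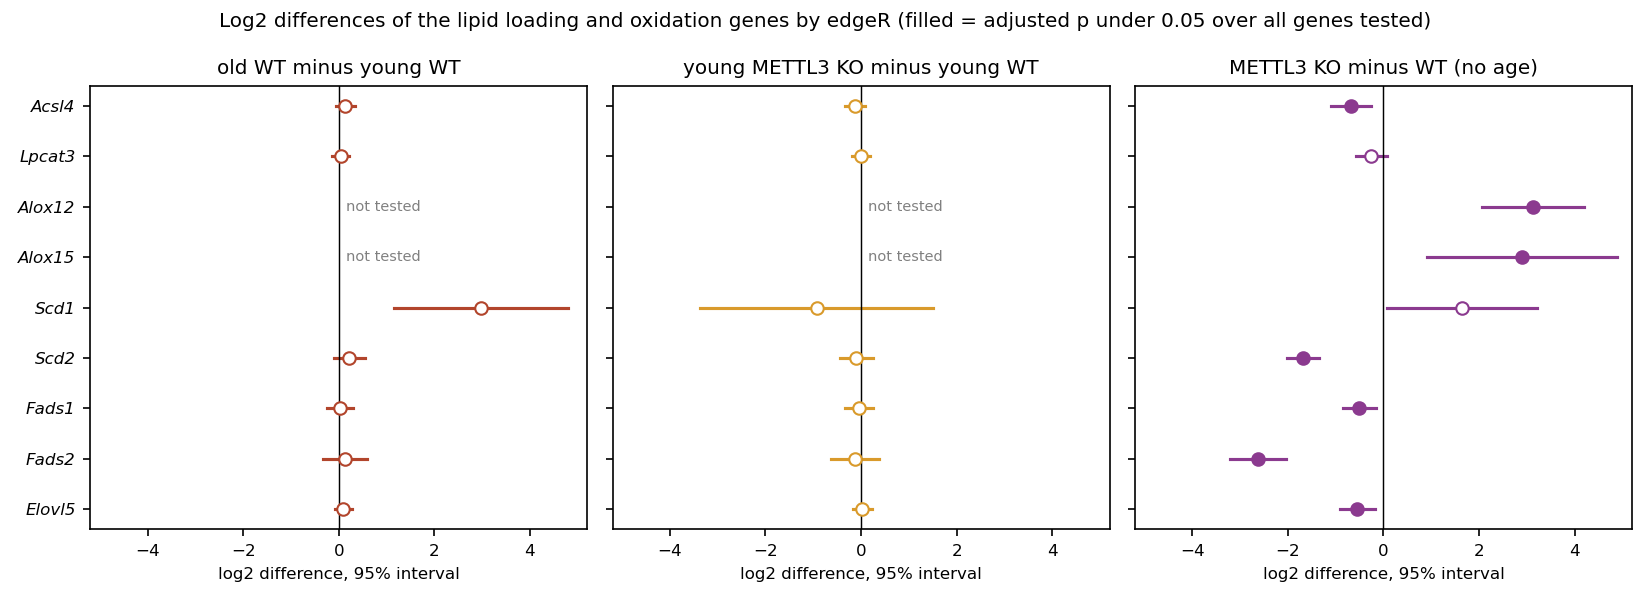
Log2 difference of each gene that could be tested (points) with its 95% interval (lines) in the 3 comparisons, on 1 shared horizontal scale; filled points have an adjusted p under 0.05 by edgeR's quasi-likelihood test, and Alox5 was tested in none. No point is filled for old WT minus young WT or young METTL3 KO minus young WT, and 7 of 9 are filled for METTL3 KO minus WT without an age, from -2.62 for Fads2 to 3.13 for Alox12.

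Whether the genotype differences of the sets are unequal was tested as an interaction over 12 libraries, where 36.9% of all genes were called. Of the 9 genes tested, 3 were called. Fads2 differed between the sets by -2.33 ± 0.27 (adjusted p = 4.69e-05) and Scd2 by -1.41 ± 0.21 (adjusted p = 0.000212), the difference being more negative in the set without an age. Scd1 differed by 2.74 ± 0.88 (adjusted p = 0.0241), a call that was lost in 9 of the 12 fits that left out 1 library. Acsl4 (-0.39, adjusted p = 0.153), Elovl5 (-0.40, adjusted p = 0.0878), Fads1 (-0.29, adjusted p = 0.213), Lpcat3 (-0.09, adjusted p = 0.656), Alox12 (4.11, adjusted p = 0.0744) and Alox15 (3.07, adjusted p = 0.314) did not pass. With 1 library left out, Elovl5 passed in 9 of the 12 fits (-0.68 to -0.38 over all 12), Fads1 in 5 (-0.61 to -0.29) and Acsl4 in 2 (-0.74 to -0.36), so whether the sets differ in these genes depends on the libraries in the fit. The median interaction over all genes moved too, to between -0.01 and 0.23 in these fits, against 0.14 with all 12 libraries. Alox12 and Alox15 were too low to test in the young set alone. The sets also differ in processing. Entries not aligned made up 50.5% to 52.2% in the set without an age and 0.58% to 0.83% in the other. The Mettl3 gene count differed from WT by -0.58 (log2) in METTL3 KO without an age and by -0.002 in young METTL3 KO. The interaction of Mettl3 itself was -0.41 ± 0.19 and was not called (adjusted p = 0.106). Set, processing, any difference in age and any inequality in Mettl3 cannot be told apart.

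Other genes of these routes gave 0 calls by edgeR with age and 0 in young METTL3 KO in each of 5 lists. At an unadjusted p under 0.05 there were 0 to 4 genes per list for age and 0 for young METTL3 KO. Over all genes, 0.253% were called with age and 0% in young METTL3 KO. The shares of all genes at an unadjusted p under 0.05 were 12.1% and 0.618%. With age, their median log2 differences were 0.06 for 17 tested acyl-CoA synthetases and lysophospholipid acyltransferases, 0.18 for 14 genes of desaturation and elongation, 0.00 for 7 of lipid oxidation and eicosanoid synthesis, 0.13 for 14 phospholipases and genes of ether lipid synthesis, and 0.11 for 16 of lipogenesis and its regulators. The smallest p with age belonged to the lipase Pnpla2, at 43.3 ± 3.58 CPM in old WT and 31.8 ± 0.657 CPM in young WT (0.45 ± 0.09, adjusted p = 0.0942).

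In METTL3 KO against WT libraries without an age the lists went both ways, and their shares called are to be read against the 29.9% of all genes called higher and 24% called lower. Of 18 synthetases and acyltransferases, 4 were higher and 5 lower, with the fatty acid carrier Slc27a1 at 146.8 ± 2.40 CPM in KO and 75.5 ± 6.63 CPM in WT (0.96 ± 0.14, adjusted p = 0.000364) and the acyltransferase Lpcat4 at 35.2 ± 2.503 CPM in KO and 15.8 ± 1.01 CPM in WT. Of 14 further genes of desaturation and elongation, 3 were higher and 3 lower, and Scd4, another stearoyl-CoA desaturase, went against Scd2, at 17.4 ± 2.80 CPM in KO and 5.995 ± 0.505 CPM in WT (1.53 ± 0.24, adjusted p = 0.000412). Elovl1, which lengthens saturated chains, was at 49.4 ± 7.24 CPM in KO and 26.8 ± 0.969 CPM in WT (0.88 ± 0.17). Of 10 genes of lipid oxidation, 3 were higher and 1 lower. The 3 higher ones were near 0 in WT and passed the filter on low counts through the KO libraries, where they are high. So did some of the higher genes among the synthetases and in the lipogenesis list below. The lipoxygenase family member Aloxe3 was at 4.86 ± 0.972 CPM in KO and 0.258 ± 0.126 CPM in WT (4.19 ± 0.52, adjusted p = 0.000152). Lta4h, which acts after ALOX5 in leukotriene synthesis, fell by 0.73 on the log2 scale (126 ± 15.2 CPM in KO and 209 ± 13.5 CPM in WT).

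Of 14 phospholipases and ether lipid genes, 3 were higher and 4 lower in KO, near the 53.9% called either way over all genes. The phospholipase Pla2g6 was at 110.8 ± 4.75 CPM in KO and 43.6 ± 6.79 CPM in WT (1.34 ± 0.16, adjusted p = 0.00014), and Agps, which builds ether lipids in peroxisomes, at 51.4 ± 6.74 CPM in KO and 120 ± 10.1 CPM in WT (-1.22 ± 0.16, adjusted p = 0.000188). Lipogenesis and its regulators had the most falls, with 4 of 18 higher and 8 lower, against 29.9% and 24% of all genes, and a median of -0.24. The 8 lower ones averaged at least 10 CPM. Of all genes at these levels, 35.0% (10 to 100 CPM) and 40.1% (at least 100 CPM) were called lower. Acly, which supplies acetyl-CoA for fatty acid synthesis, was at 143 ± 11.03 CPM in KO and 341 ± 6.88 CPM in WT (-1.25 ± 0.14, adjusted p = 0.000105), and the sterol exporter Abcg1 at 88.4 ± 6.23 CPM in KO and 172 ± 11.2 CPM in WT (-0.96 ± 0.14, adjusted p = 0.000355). These lists hold 20, 20, 17, 14 and 19 genes in all, none of them among the 10.

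Over the 10 libraries with an age, the genes whose log2 level was most like that of Scd2, among 10733 searched, were the haematopoietic phosphatase Ptpn7 (Pearson r = 0.924), Prr12 (0.919) and Abcg1 (0.918). For Elovl5 they were Rsph3b (0.899), Ager (0.894) and Cenph (0.873). These are the highest of many correlations over libraries that share their groups, and are given as a description.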

How the data were processed

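Bulk RNA sequencing of sorted mouse DP thymocytes was read from 16 files of raw counts per gene, as the authors deposited them. HISAT2 2.0.5 was the aligner and mm10 the genome, per the submitters' processing notes. Which program, annotation and strand setting gave the counts is not given in the labels or file headers. The 5 summary lines of each file stayed out of library sizes and tests.

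Low genes were removed by filterByExpr, and the rest fitted with edgeR 4.0.16 in R 4.3.3 (TMM scaling, robust quasi-likelihood, two-sided, Benjamini-Hochberg over all genes tested, threshold 0.05). The SE is the log2 difference divided by the square root of F. The age and young METTL3 KO comparisons share 1 fit of 10 libraries, the set without an age used its 6, and the interaction 12. Symbols, coordinates and exon lengths came from the GENCODE annotation of mm10. Alternatives were DESeq2 1.42.0 and its size factors, limma-voom (limma 3.58.1), library size alone, no filter, a replicate block, sex as a covariate, the groups compared alone and each library left out; male libraries only was added after the data were seen. Simulated data with known changes were used to test the scripts. Tables and figures were made in Python 3.11.15 with pandas 2.3.3 and matplotlib 3.10.9. The 10 genes, the other lists and the rule for named genes (the 10, the 2 smallest p of each list, Mettl3, partners on the other strand, the 3 most similar genes and the highest marker of a list) were chosen with earlier results of these data known. Total counts limit the precision of low genes, and floors cover counting error only. A marker of the DP list is not reported here and was left out of its sums.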

Additional observations from a re-analysis of the deposited data

Results flagged for a closer look

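Alox5 in old WT replicate 3 (10 counts, 1.075 CPM) lay far from the other old WT libraries, which were at 0 to 0.0991 CPM. Fads1 in old WT replicate 4 (36.5 CPM) lay far below the other old WT libraries, at 48.8 to 50.2 CPM. The gap was tested in the 4 old WT libraries for each of the 10 genes, and 2 of these 10 stood out, where chance gives about 1 in 20.

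For 3 of the 9 genes tested the METTL3 KO minus WT difference was called unequal between the set without an age and the young set. The test was the interaction term of edgeR over 12 libraries, which called 36.9% of all genes. The interaction was 2.74 on the log2 scale for Scd1, -1.41 for Scd2 and -2.33 for Fads2. The call of Scd1 was lost in 9 of the 12 fits that left out 1 library.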

How the results depend on the processing

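Between old WT and young WT, 0 of the lipid genes were called with each library left out (0 to 0) and 1, Scd1, with DESeq2. Over all genes the 36 calls became 85 without the filter on low counts, 153 with DESeq2 (109 higher, 44 lower), 61 with the replicate block and 11 with the groups compared alone, and 8 to 59 with a library left out. In young METTL3 KO against young WT the only call over all genes was 1 without the filter, and 0 to 0 with a library left out. In METTL3 KO against WT without an age, 5 to 8 of the lipid genes and 7642 to 10731 of all genes were called over the other settings, and 6 to 8 and 7746 to 9866 with a library left out. In the interaction the 3 calls became 5 without the filter and 5 with limma-voom, and 2 to 6 with a library left out. Over all genes 6104 were called there, 4543 to 7592 over the other settings and 5225 to 7349 with a library left out. The highest count of lipid genes called in the interaction, 6, came without METTL3 KO replicate 2.

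The labels do not say that the replicate numbers pair the libraries. Deviations of same-numbered libraries correlated at -0.229 to 0.0869 in the set with an age and -0.125 to 0.00886 in the other. Those of libraries with different numbers correlated at -0.197 to 0.324 and -0.0703 to 0.0989. With so few libraries in a group, these values cannot decide whether the libraries are paired. With the replicate block, 5 of the lipid genes were called in METTL3 KO against WT without an age, without Fads1 (-0.50, adjusted p = 0.0613) and Elovl5 (-0.55, adjusted p = 0.0536), and 2 in the interaction.

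Over 548 single-gene settings, 490 kept the direction and the side of the threshold, 20 lost the call, 25 gained one and 13 changed sign. Each change of sign came from leaving out 1 library and concerned a difference near 0 that was never called. With a library left out, old WT minus young WT ran from -0.0103 to 0.0653 for Lpcat3, -0.0255 to 0.12 for Fads1 and -0.0129 to 0.33 for Fads2. Young METTL3 KO minus young WT ran from -0.0267 to 0.0310 for Lpcat3, -0.23 to 0.10 for Scd2, -0.14 to 0.0349 for Fads1, -0.26 to 0.0773 for Fads2 and -0.0117 to 0.0649 for Elovl5. The causes of these changes were not tested. Depth limits Scd1 and the lipoxygenases, which had 0 to 10 counts per library in both young groups.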
